A study of Mus musculus with 4 samples.

Results

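The genes described here are Ifng, the gene of the cytokine interferon-γ, and 9 transcription factors that set the effector, lineage or residency state of T cells: Tbx21, Eomes, Runx3, Zbtb7b, Prdm1, Zfp683, Bhlhe40, Ikzf2 and Gata3. They were chosen by symbol from a fixed list, with earlier results of these data known. All 10 were found once each among the 32285 genes of every count table. CD45+ cells, which are immune cells, had been sorted out of small-intestinal crypts of mice and sequenced as 5′ single-cell RNA libraries (10x Genomics), 18000 cells being loaded for each. The titles name 2 samples Control and 2 Cystine, after the disulfide form of the amino acid cysteine, and these names set the groups here, although the treatment entry is "Control" throughout. The protocol in the labels says that the mice ate a control diet or one high in cysteine, so the groups are called diets. The labels give the animals as male and no strain, transgene or age. The labels do not say whether a sample was 1 mouse or a pool, and p-values therefore reflect the scatter among these 4 libraries, which may be technical.

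Interferon-γ is the main cytokine of type 1 immunity, and T-bet, the product of Tbx21, binds and activates its gene downstream of interleukin-12 and STAT4. Eomesodermin (Eomes) is the related T-box factor of memory CD8 T cells and NK cells, and GATA-3 opposes T-bet as the organiser of type 2 responses. Runx3 keeps the CD8 fate and silences Cd4, whereas ThPOK (Zbtb7b) keeps the CD4 fate. Blimp-1 (Prdm1), Hobit (Zfp683) and Bhlhe40 are tied to residence of T cells in tissue. Helios (Ikzf2) marks regulatory T cells and T cells selected by self-antigen, among them natural intraepithelial lymphocytes of the gut.

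Of 58725 cells kept, 34428 were assigned by their own transcripts to 6 types of T and NK cells. γδ T cells carried Trdc, CD8αβ T cells carried Cd8a and Cd8b1, and CD4 T cells carried Cd4. Cells with Cd8a and a T cell receptor β transcript but no Cd8b1 or Trdc are called Cd8a-only T cells, and those with a β transcript and no coreceptor are called coreceptor-undetected T cells. NK or ILC1 cells carried Ncr1 and no transcript of Cd3d, Cd3e, Cd3g, Trac, Trbc1, Trbc2 or Trdc. The genes not used for the assignment did not separate all of these types: Tcrg-C1, a γ chain constant gene, stood at 391 to 455 CPM in Cd8a-only cells, at 284 to 363 CPM in coreceptor-undetected cells and at 589 to 787 CPM in γδ cells. Trac, the α chain constant gene, stood at 419 to 538 CPM in γδ cells and at 301 to 354 CPM in CD8αβ cells, and Tcrg-C4 stood at 383 to 436 CPM in γδ cells and at 311 and 420 CPM in CD8αβ cells of the controls. All of these names therefore state the rule and not a proven receptor. Cd5, a surface protein of conventional T cells, did separate γδ from CD8αβ cells, at 1.0 to 5.7 CPM and 75.4 to 190.4 CPM. In Cd8a-only cells it stood at 3.09 to 12.9 CPM, which overlapped γδ cells. In coreceptor-undetected cells it stood at 52.5 to 113 CPM, which overlapped CD8αβ cells. CPM are UMIs (counted RNA molecules) per 1000000 UMIs of that cell type in that sample. CD4 cells had Cd40lg at 72.4 to 176 CPM, and NK or ILC1 cells had Klrb1c at 724 to 909 CPM. NK or ILC1 cells were not free of T cell receptor transcripts. In them Tcrg-C4 stood at 229 and 389 CPM in the controls and at 515 and 96.9 CPM in the cystine samples, from 6, 9, 11 and 4 UMIs. Trdv4, a δ chain variable gene, had 4, 1, 3 and 14 UMIs there. There were 4954, 5123, 3538 and 4150 γδ cells in control replicates 1 and 2 and cystine replicates 1 and 2, 518, 453, 1149 and 1205 CD8αβ cells, and 41 to 81 CD4 cells per sample. NK or ILC1 cells numbered 13 to 24 per sample and are given as values without a test. The 4 libraries held 13481 to 16317 kept cells with a median of 1294 to 1713 UMIs, and any 2 of them shared 335 to 454 barcodes.

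Helios transcripts were lower with cystine in CD8αβ T cells, and this change differed from those in γδ and Cd8a-only T cells. In CD8αβ cells Ikzf2 stood at 221.9 and 222.9 CPM in the control replicates and at 110.8 and 108.2 CPM in the cystine replicates, from 208, 207, 178 and 225 UMIs. Both cystine samples lay below both controls, and the replicates of each diet lay close together. The log2 fold change, cystine over control, was -1.10 (SE 0.13, edgeR quasi-likelihood test, adjusted p = 0.00268). Of the 7 members tested in these cells 1 passed, Ikzf2, which fell; 0.766% of all 8353 genes tested passed, and 0.539% passed as lower. The median change was 0.22 over the 7 members and 0.00 over all genes. After each cell was thinned to 1000 UMIs, 18.1% and 16.8% of control cells and 7.93% and 7.03% of cystine cells had an Ikzf2 UMI, with 24 to 191 shallower cells per sample left out. In B cells, the background for this gene, the share was 4.40% and 2.53% in the controls and 2.27% and 1.67% with cystine. Ikzf2 in B cells stood at 42.6 and 40.8 CPM in the controls and at 22.7 and 17.7 CPM with cystine, from 15, 15, 50 and 18 UMIs, so this background was also lower with cystine, without overlap. The means in B cells were 41.7 and 20.2 CPM, against 222 and 109 CPM in CD8αβ cells; the B cell difference, and its part in the CD8αβ result, was not tested. The median depth before thinning was 1319 to 1838 UMIs in CD8αβ cells and 1162 to 1325 UMIs in B cells.

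In γδ cells, Ikzf2 stood at 669 and 529 CPM in the controls and at 477 and 609 CPM in the cystine samples. The groups overlapped, and the log2 fold change was -0.20 (SE 0.15, edgeR adjusted p = 0.918). In Cd8a-only cells the values were 726 and 589 against 570 and 667 CPM (-0.15, SE 0.13, edgeR adjusted p = 0.919), which overlapped as well. In coreceptor-undetected cells the change was -0.23 (SE 0.16, edgeR adjusted p = 0.974), and its difference from CD8αβ cells was not tested. The difference between types was tested for the other types. The fall in CD8αβ cells exceeded the change in γδ cells by 0.88 on the log2 scale (-0.88, SE 0.14, edgeR interaction, adjusted p = 0.000219) and that in Cd8a-only cells by 0.93 (-0.93, SE 0.12, adjusted p = 0.000109). Against CD4 cells the interaction was -1.27 (SE 0.50, edgeR adjusted p = 0.998) and did not pass. In the interaction with γδ cells 2 of 9 members tested passed, Ikzf2 lower and Tbx21 higher, against 1.22% of all genes (0.71% lower and 0.507% higher). With Cd8a-only cells 1 of 9 passed as lower, against 0.915% of genes (0.566% lower). With CD4 cells 0 of 8 passed by edgeR, against 0.0426% of 7034 genes. Of these 7034, 317 had an unadjusted edgeR p below 0.05, so little could be detected there.

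**Figure D1:**
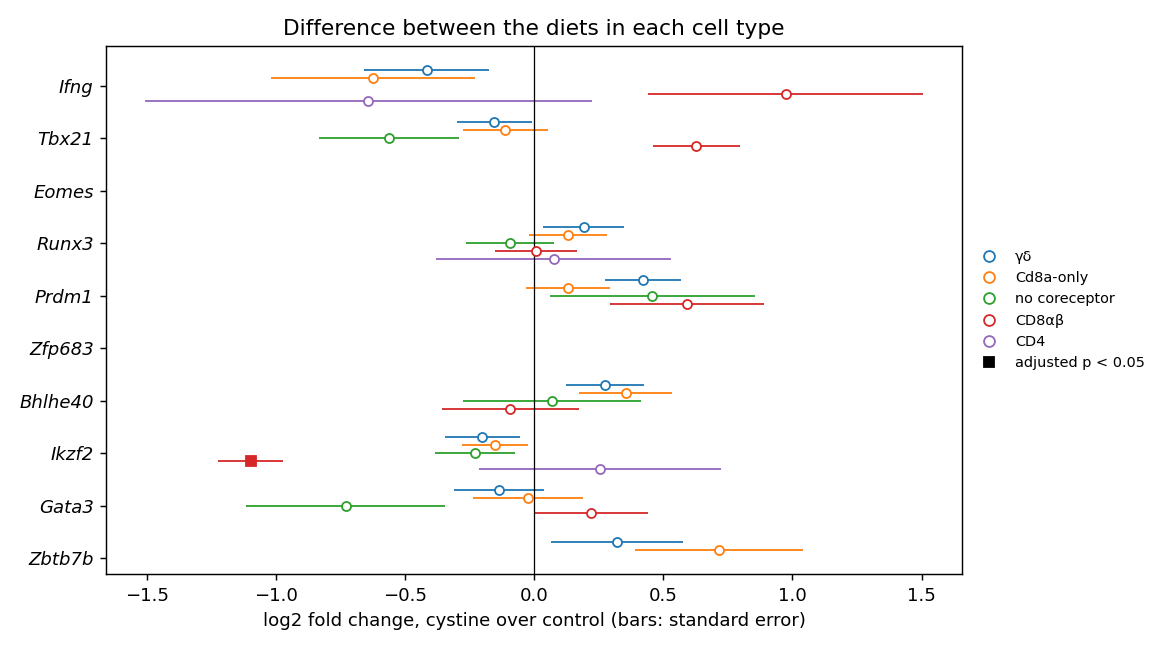
Log2 fold change, cystine over control, of each gene in each T cell type (colours), with standard errors as bars; filled squares mark an adjusted p under 0.05 in the edgeR test, and genes removed by the low count filter in a type have no point there. Ikzf2 in CD8αβ T cells, at -1.10, is the filled square; Eomes and Zfp683 had too few UMIs for a test in any single type.

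Within CD8αβ cells the Ikzf2 difference was larger among cells that carried Gzmk, the gene of granzyme K. These cells made up 18.7% and 26.5% of CD8αβ cells on the control diet and 62.6% and 58.4% with cystine, a split chosen after the data had been seen. Among cells with a Gzmk UMI, Ikzf2 stood at 220.3 and 196.4 CPM in the controls and at 71.1 and 46.8 CPM in the cystine samples (40, 54, 73 and 57 UMIs). Among cells without one it stood at 222.2 and 234.1 CPM in the controls and at 180.9 and 194.8 CPM in the cystine samples. The diet difference was -1.90 (edgeR adjusted p = 0.00114) in the first and -0.35 (adjusted p = 0.629) in the second. In the test of the difference between these 2 diet effects, 31 genes were lower and 11 higher. Fcer1g (-1.87, SE 0.15, edgeR adjusted p = 4.2e-10) and Tcrg-C1 (-1.44, SE 0.32, adjusted p = 0.0201), both abundant in γδ cells, were among the lower. Their part in the Ikzf2 result was not tested. For Ikzf2 the difference was -1.56 (SE 0.26, edgeR adjusted p = 0.000592), and Ikzf2 was the 1 of 7 members to pass, against 0.556% of all genes (0.411% lower). It did not pass without cystine replicate 2 (-1.17, edgeR adjusted p = 0.0722), with stricter gates (-0.60, adjusted p = 0.918) or in cells thinned to 1000 UMIs (-1.13, adjusted p = 0.437).

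Over all 4 samples, CD8αβ cells with a Gzmk UMI had less Ikzf2 than those without (-1.01, SE 0.21, edgeR adjusted p = 0.0154), the 1 of 6 members to pass, against 0.869% of genes (0.515% lower). That call was lost without cystine replicate 1 (-0.86, edgeR adjusted p = 0.302), without cystine replicate 2 (-0.57, adjusted p = 0.355) and with stricter gates (-0.43, adjusted p = 0.463). In control replicate 1 the 2 kinds of cell stood at 220.3 and 222.2 CPM, so the samples that set them apart were chiefly the cystine ones.

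Transcripts that were abundant in γδ cells lay lower in the same samples within the CD8αβ gate. Fcer1g stood at 775 and 1009 CPM in the controls and at 626 and 430 CPM in the cystine samples, against 3159 to 3893 CPM in γδ cells. Tcrg-C4 stood at 311 and 420 CPM against 115 and 188 CPM. CD8αβ cells with 0 UMIs of Tcrg-C1, Tcrg-C2, Tcrg-C4 and Fcer1g, another choice made after seeing the data, numbered 152, 109, 709 and 627. In them Ikzf2 stood at 114.3 and 64.3 CPM in the controls and at 42.9 and 37.2 CPM in the cystine samples, from 29, 14, 40 and 36 UMIs. The log2 fold change was -1.27 and did not pass (edgeR adjusted p = 0.116). The whole CD8αβ gate held 518, 453, 1149 and 1205 cells in the same samples. The part that cells with these transcripts had in the Ikzf2 result was not tested.

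**Figure D2:**
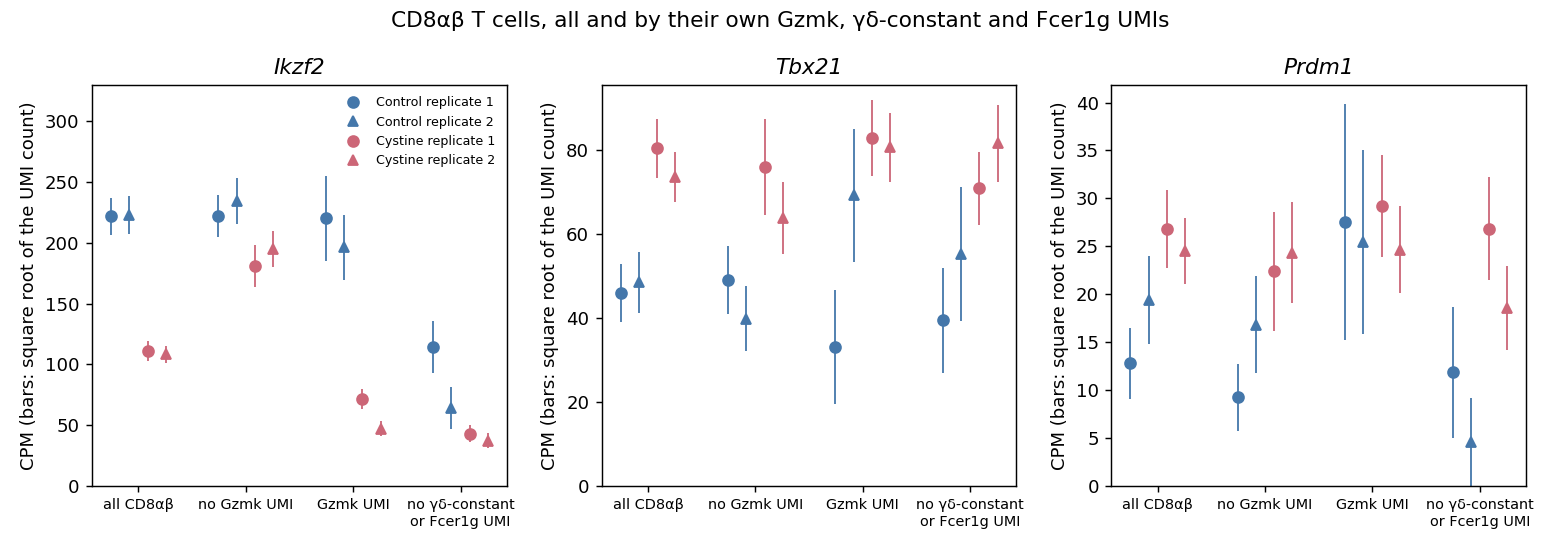
CPM of Ikzf2, Tbx21 and Prdm1 in all CD8αβ T cells, in those without and with a Gzmk UMI, and in those with 0 UMIs of γ chain constant genes and Fcer1g; each point is a sample and bars are the square root of the UMI count, which covers counting error only. For Ikzf2 the cystine samples lie at 71.1 and 46.8 CPM among cells with Gzmk and at 180.9 and 194.8 CPM among cells without it.

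T-bet transcripts differed between the types in the other direction. In CD8αβ cells Tbx21 stood at 45.9 and 48.5 CPM in the controls and at 80.3 and 73.6 CPM in the cystine samples, from 43, 45, 129 and 153 UMIs. The cystine samples lay above both controls, but the log2 fold change of 0.63 (SE 0.17) did not pass over all genes (edgeR adjusted p = 0.158), though it did without the low count filter (0.66, adjusted p = 0.0494). In γδ cells the values were 67.8, 68.5, 70.7 and 57.8 CPM, and the groups overlapped (-0.15, edgeR adjusted p = 0.958). The difference between these diet effects was 0.81 (SE 0.19, edgeR interaction, adjusted p = 0.0227). It did not pass without control replicate 1 (0.80, edgeR adjusted p = 0.0810), control replicate 2 (0.83, adjusted p = 0.0934) or cystine replicate 2 (0.70, adjusted p = 0.158), nor with stricter gates (0.83, adjusted p = 0.156). Against Cd8a-only cells the interaction was 0.77 (SE 0.19, edgeR adjusted p = 0.0546); it passed without cystine replicate 1 (0.90, adjusted p = 0.0382) and without the low count filter (0.80, adjusted p = 0.0128). Within CD8αβ cells the Tbx21 diet effects with and without Gzmk differed by -0.04 with a wide error (SE 0.40, edgeR adjusted p = 0.993), which does not show that they were alike.

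The other factors measured in CD8αβ cells did not pass. Blimp-1 (Prdm1) stood at 12.8 and 19.4 CPM in the controls and at 26.8 and 24.5 CPM in the cystine samples (12, 18, 43 and 51 UMIs). The groups did not overlap, and the log2 fold change was 0.59 (SE 0.30, edgeR adjusted p = 0.51). Runx3 stood at 202 and 236 against 199.8 and 261 CPM and overlapped between diets (0.01, SE 0.16, edgeR adjusted p = 0.998). Bhlhe40 (-0.09, SE 0.26) and Gata3 (0.22, SE 0.22) had edgeR adjusted p = 0.952 and 0.794. Hobit (Zfp683) had 0, 3, 6 and 7 UMIs and Eomes 0, 0, 3 and 7 UMIs. At these depths a count of 0 allows up to 3.20 CPM in control replicate 1 and 3.23 CPM in control replicate 2, so a difference in Eomes or Zfp683 was not detectable.

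In the remaining types no member passed the diet test. In γδ cells 0 of 8 members tested passed, against 0.227% of genes, and the log2 fold changes ran from -0.42 (Ifng) to 0.42 (Prdm1). Prdm1 in γδ cells stood at 29.5 and 27.1 CPM in the controls and at 37.4 and 41.6 CPM in the cystine samples (0.42, SE 0.15, edgeR adjusted p = 0.545). In Cd8a-only cells 0 of 8 passed, against 0.0757% of genes, and the changes ran from -0.62 (Ifng) to 0.71 (Zbtb7b, 6.88 and 4.29 against 8.19 and 10.7 CPM, edgeR adjusted p = 0.809). In coreceptor-undetected cells 0 of 6 passed, against 0.0672%, with Gata3 the lowest at -0.73 (SE 0.39, edgeR adjusted p = 0.974). In CD4 cells 3 members could be tested and 0 passed; 0 of 1829 genes passed there (0%) by edgeR, with 100 at an unadjusted p below 0.05, so that little could be detected in these 41 to 81 cells.

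When all T cells of a sample were summed, all 10 members could be tested and 0 passed, against 0.185% of 13008 genes. Interferon-γ came nearest. Ifng stood at 11.0 and 11.3 CPM in the controls and at 5.81 and 9.75 CPM in the cystine samples, from 218, 266, 99 and 198 UMIs. The cystine samples were lower, chiefly replicate 1, and the log2 fold change was -0.59 (SE 0.25, edgeR adjusted p = 0.823). Without cystine replicate 2 it was -1.03 (edgeR adjusted p = 0.0320). Eomes (-0.35, SE 0.50) rested on 8 to 19 UMIs and Zfp683 (0.46, SE 0.47) on 13 to 20 UMIs per sample, each with an edgeR adjusted p of 0.9997.

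Across types, Ifng per UMI was highest on average in CD4 T cells and NK or ILC1 cells. In CD4 cells it stood at 45.8 and 220 CPM in the controls and at 12.1 and 126 CPM in the cystine samples, which is 6, 20, 1 and 15 UMIs in 5, 7, 1 and 9 cells. The samples of this small gate spread widely and the diets overlapped, and a single cell of control replicate 2 held 9 of its 20 UMIs. The log2 fold change over CD8αβ cells was 2.71 (SE 0.58, edgeR, sample as block, adjusted p = 0.00407), and without control replicate 2 it was 1.87 (adjusted p = 0.0701). NK or ILC1 cells had 1, 4, 2 and 4 Ifng UMIs (38.1 to 173 CPM). Both CD4 and NK or ILC1 cells overlapped coreceptor-undetected cells, which ran from 4.79 to 41.9 CPM.

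In the larger types Ifng was sparse. Its means over the 4 samples were 15.8 CPM in coreceptor-undetected cells, 11.3 in CD8αβ, 8.23 in γδ and 7.38 in Cd8a-only cells, and each neighbour in this order overlapped the next. Control replicate 1 of the coreceptor-undetected cells had 35 UMIs, of which 1 cell held 20. B cells had 0 Ifng UMIs in all 4 samples, which allows up to 1.36 CPM in the deepest of them. Against CD8αβ cells, γδ (-0.77, SE 0.41, edgeR adjusted p = 0.141) and Cd8a-only cells (-0.88, SE 0.43, adjusted p = 0.115) did not pass, but both did without control replicate 2 (-1.003, adjusted p = 0.0234, and -1.44, adjusted p = 0.00433). Both also passed with stricter gates (-1.19, edgeR adjusted p = 0.0163, and -1.10, adjusted p = 0.0409) and without the low count filter (-0.73, adjusted p = 0.00807, and -0.84, adjusted p = 0.00337).

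The diet differences of Ifng had opposite signs in γδ and CD8αβ cells, and neither passed. γδ cells had 10.1 and 8.48 CPM in the controls and 6.15 and 8.22 CPM in the cystine samples (-0.42, SE 0.24, edgeR adjusted p = 0.848). CD8αβ cells had 11.7 and 3.23 against 10.6 and 19.7 CPM, from 11, 3, 17 and 41 UMIs (0.97, SE 0.53, edgeR adjusted p = 0.553). The interaction was 1.42 (SE 0.49, edgeR adjusted p = 0.198) and did not pass. The interaction with Cd8a-only cells, 1.53 (edgeR adjusted p = 0.372), passed without control replicate 1 (3.20, adjusted p = 0.00169).

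The share of cells with an Ifng UMI did not pass either. In γδ cells thinned to 1000 UMIs it was 0.85% ± 0.0594 in the controls against 0.643% ± 0.105 with cystine (SD, n = 2 per diet; two-sided exact permutation test, p = 0.33, the smallest that 2 against 2 samples allow). In CD8αβ cells the shares were 0.895% ± 0.607 and 1.20% ± 0.216 (n = 2 each, exact permutation p = 0.667). In CD4 cells they were 5% and 10.3% for the controls, 0% and 14.3% for the cystine samples, from 31 to 60 cells. The thinned B cells had 0 of 159 to 1056 cells with an Ifng UMI, and the largest of these samples allows a share of up to 0.284%.

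**Figure D3:**
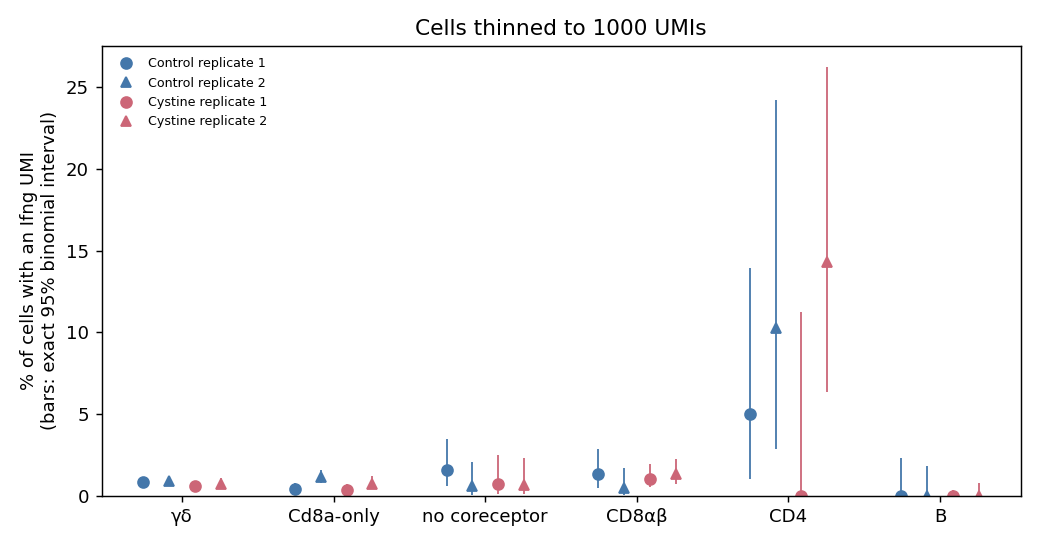
Percentage of cells with an Ifng UMI in each type and sample after thinning to 1000 UMIs, with exact (Clopper-Pearson) 95% binomial intervals, which cover counting error only. CD4 T cells reach 14.3% in cystine replicate 2 and 0% in cystine replicate 1, and the other T cell types stay under 2%.

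γδ cells were the 1 type with at least 20 Ifng-positive cells in every sample (73, 82, 31 and 55), so the factors could be compared there between cells with and without Ifng. None of the 7 factors tested passed, against 0.845% of 9821 genes. Bhlhe40, a cofactor needed for full interferon-γ output in T helper cells, came nearest: it stood at 58.9, 67.0, 82.1 and 38.8 CPM in cells with Ifng and at 26.6, 23.6, 32.9 and 31.9 CPM in cells without. It was higher in 4 of 4 samples (1.12, SE 0.33, edgeR adjusted p = 0.0894), and it passed without cystine replicate 2 (1.33, adjusted p = 0.0422) and with DESeq2 size factors (1.18, adjusted p = 0.0497). The Ikzf2 difference did not pass (-0.43, SE 0.13, edgeR adjusted p = 0.130), except when the low count filter was left out (-0.55, adjusted p = 0.00557). Tbx21 (-0.29, SE 0.29), Prdm1 (0.54, SE 0.35), Runx3 (-0.01, SE 0.15), Gata3 (-0.05, SE 0.39) and Zbtb7b (0.93, SE 0.72) had edgeR adjusted p between 0.850 and 0.9996.

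Some effector genes differed between the same cells. Ifng-positive γδ cells were deeper in every sample, with medians of 1721, 1938, 2136 and 2320 UMIs against 1440, 1784, 1472 and 1626 UMIs in the others, and the part of this depth was not tested. In this comparison 0.845% of all genes passed. Of 14 type 1 effector genes tested, 4 were higher in Ifng-positive γδ cells and 0 lower, with a median of 0.41 against -0.07 over all genes. They were the chemokines Ccl4 (2.23, SE 0.14, edgeR adjusted p = 3.0e-27) and Ccl3 (1.37, SE 0.22, adjusted p = 4.3e-06) and the granzymes Gzmb (0.66, SE 0.08, adjusted p = 3.1e-09) and Gzma (0.33, SE 0.07, adjusted p = 0.00110). Epithelial transcripts moved too: Krt8 (3.07, SE 0.48, edgeR adjusted p = 3.8e-06) and Reg3g (2.05, adjusted p = 0.00964) were higher and Defa24 (-1.25, adjusted p = 0.00325) was lower. Of 7 epithelial markers tested 2 were higher and 1 lower, and their part in the comparison was not tested.

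**Figure D4:**
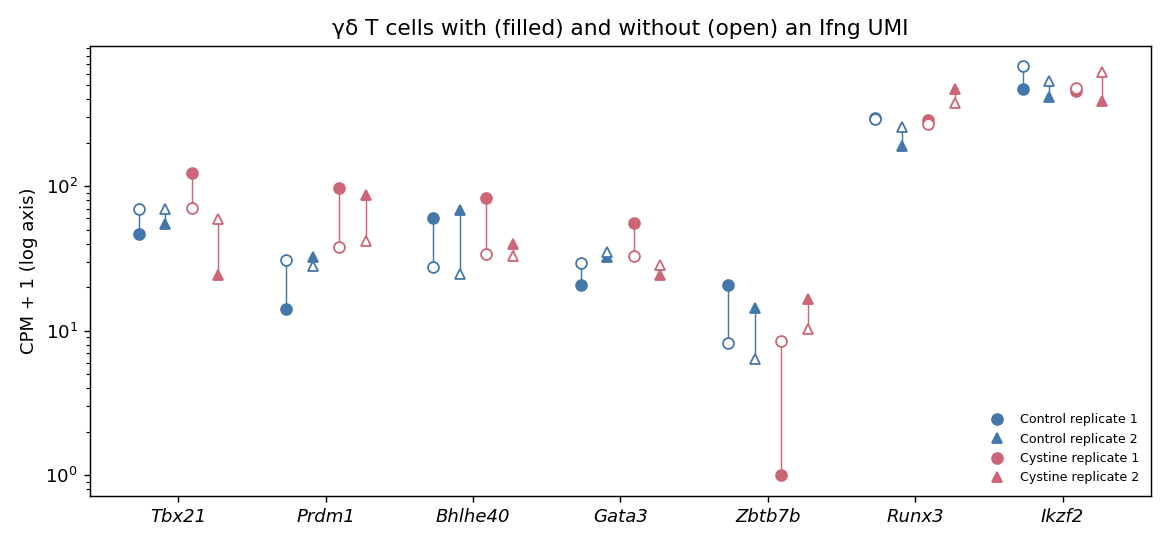
CPM + 1 on a log axis of 7 factors in γδ T cells with (filled) and without (open) an Ifng UMI, joined within each sample. Bhlhe40 is higher in Ifng-positive cells in 4 of 4 samples (38.8 to 82.1 against 23.6 to 32.9 CPM).

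T-bet set NK or ILC1 cells apart. There Tbx21 stood at 267 and 346 CPM in the controls and at 328 and 339 CPM in the cystine samples, from 7, 8, 7 and 14 UMIs, above every sample of the T cell types, where it ran from 0 to 80.3 CPM. Among T cells the means were 68.4 CPM in Cd8a-only, 66.2 in γδ, 62.0 in CD8αβ, 59.0 in coreceptor-undetected and 43.1 in CD4 cells, and each neighbour overlapped the next. No contrast with CD8αβ cells passed (edgeR adjusted p from 0.388 for CD4 to 0.821 for Cd8a-only cells). Eomes UMIs numbered 0, 3, 0 and 1 in NK or ILC1 cells and 9, 10, 1 and 5 in γδ cells. CD4 cells had 0 Eomes UMIs, which allows up to 22.9 CPM in control replicate 1, the deepest sample of that type.

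The CD8 factor Runx3 was lowest on average in CD4 cells, whose range overlapped that of NK or ILC1 cells (86.5 to 281 CPM). It stood at 84.0 and 154 CPM in the controls and at 109 and 126 CPM in the cystine samples of CD4 cells, below all 4 samples of CD8αβ cells (199.8 to 261 CPM). The log2 fold change was -1.14 (SE 0.18, edgeR adjusted p = 0.000104), and it passed in all 7 alternatives fitted. γδ cells (0.30, SE 0.07, edgeR adjusted p = 0.00211) and Cd8a-only cells (0.30, SE 0.08, adjusted p = 0.0026) were slightly higher than CD8αβ cells. Their ranges, 252 to 377 and 251 to 362 CPM, overlapped that of CD8αβ cells. Both calls were lost with a stricter cell filter (0.21, edgeR adjusted p = 0.0616, and 0.19, adjusted p = 0.0992).

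ThPOK, the CD4 fate factor, was scarce in all types. Zbtb7b had 0, 2, 3 and 0 UMIs in CD4 cells, and its difference from CD8αβ cells did not pass (1.92, SE 0.95, edgeR adjusted p = 0.290). In CD8αβ cells it had 3, 4, 2 and 7 UMIs (1.24 to 4.31 CPM), below all samples of γδ cells (5.52 to 9.39 CPM). B cells ran from 2.72 to 9.08 CPM and overlapped both. Coreceptor-undetected cells ran from 2.84 to 14.4 CPM and overlapped CD8αβ cells. The log2 fold change over CD8αβ cells was 1.35 in γδ (SE 0.40, edgeR adjusted p = 0.00906), 1.33 in Cd8a-only (SE 0.41, adjusted p = 0.0128) and 1.66 in coreceptor-undetected cells (SE 0.52, adjusted p = 0.0384). Without cystine replicate 2 none of these 3 passed (1.35, edgeR adjusted p = 0.0629; 1.25, adjusted p = 0.102; 1.69, adjusted p = 0.154), and the last was also lost without control replicate 1 (1.67, adjusted p = 0.112), with the stricter cell filter (1.22, adjusted p = 0.354) and with stricter gates (2.40, adjusted p = 0.0824).

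Of the residency factors, Blimp-1 was higher in γδ and Cd8a-only than in CD8αβ cells. Prdm1 stood at 27.1 to 41.6 CPM in γδ cells, at 30.4 to 38.5 CPM in Cd8a-only cells and at 12.8 to 26.8 CPM in CD8αβ cells, so that the first 2 lay above the third without overlap. The log2 fold changes over CD8αβ cells were 0.57 (SE 0.13, edgeR adjusted p = 0.00114) and 0.58 (SE 0.14, adjusted p = 0.00134), and both passed in all 9 alternatives fitted. Bhlhe40 did not pass in any contrast (γδ 0.33, SE 0.15, edgeR adjusted p = 0.0848; it passed without control replicate 2, 0.41, adjusted p = 0.0357, and with DESeq2 size factors, 0.39, adjusted p = 0.0416). Zfp683 had 16 UMIs over the 4 samples of CD8αβ cells, 13 in γδ cells and 6 in Cd8a-only cells. It was removed by the low count filter from the contrasts between types.

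Helios transcripts separated the T cells without Cd8b1 or Cd4 from the rest. Ikzf2 averaged 638 CPM in Cd8a-only, 571 in γδ and 426 in coreceptor-undetected cells, 166 in CD8αβ, 97.3 in CD4 and 84.0 in NK or ILC1 cells. The gap in this order lay between coreceptor-undetected (365 to 493 CPM) and CD8αβ cells (108 to 223 CPM), and all other neighbours overlapped. Over CD8αβ cells the log2 fold change was 1.93 in Cd8a-only (SE 0.13, edgeR adjusted p = 4.0e-12), 1.76 in γδ (SE 0.13, adjusted p = 2.0e-11) and 1.35 in coreceptor-undetected cells (SE 0.14, adjusted p = 3.3e-07). These passed in all 9 alternatives fitted. CD4 cells did not pass (-0.89, SE 0.32, edgeR adjusted p = 0.117), but they did without the low count filter (-0.91, adjusted p = 0.00269) and without doublet removal (-1.03, adjusted p = 0.00688).

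Gata3 did not separate the T cell types. Its means were 36.8 CPM in CD4, 35.3 in CD8αβ, 31.9 in coreceptor-undetected, 31.1 in Cd8a-only and 30.4 in γδ cells, with every neighbour overlapping the next, and no contrast with CD8αβ cells passed (γδ -0.35, SE 0.16, edgeR adjusted p = 0.0794). The γδ contrast passed without control replicate 2 (-0.47, adjusted p = 0.0218) and with stricter gates (-0.50, adjusted p = 0.0194).

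**Figure D5:**
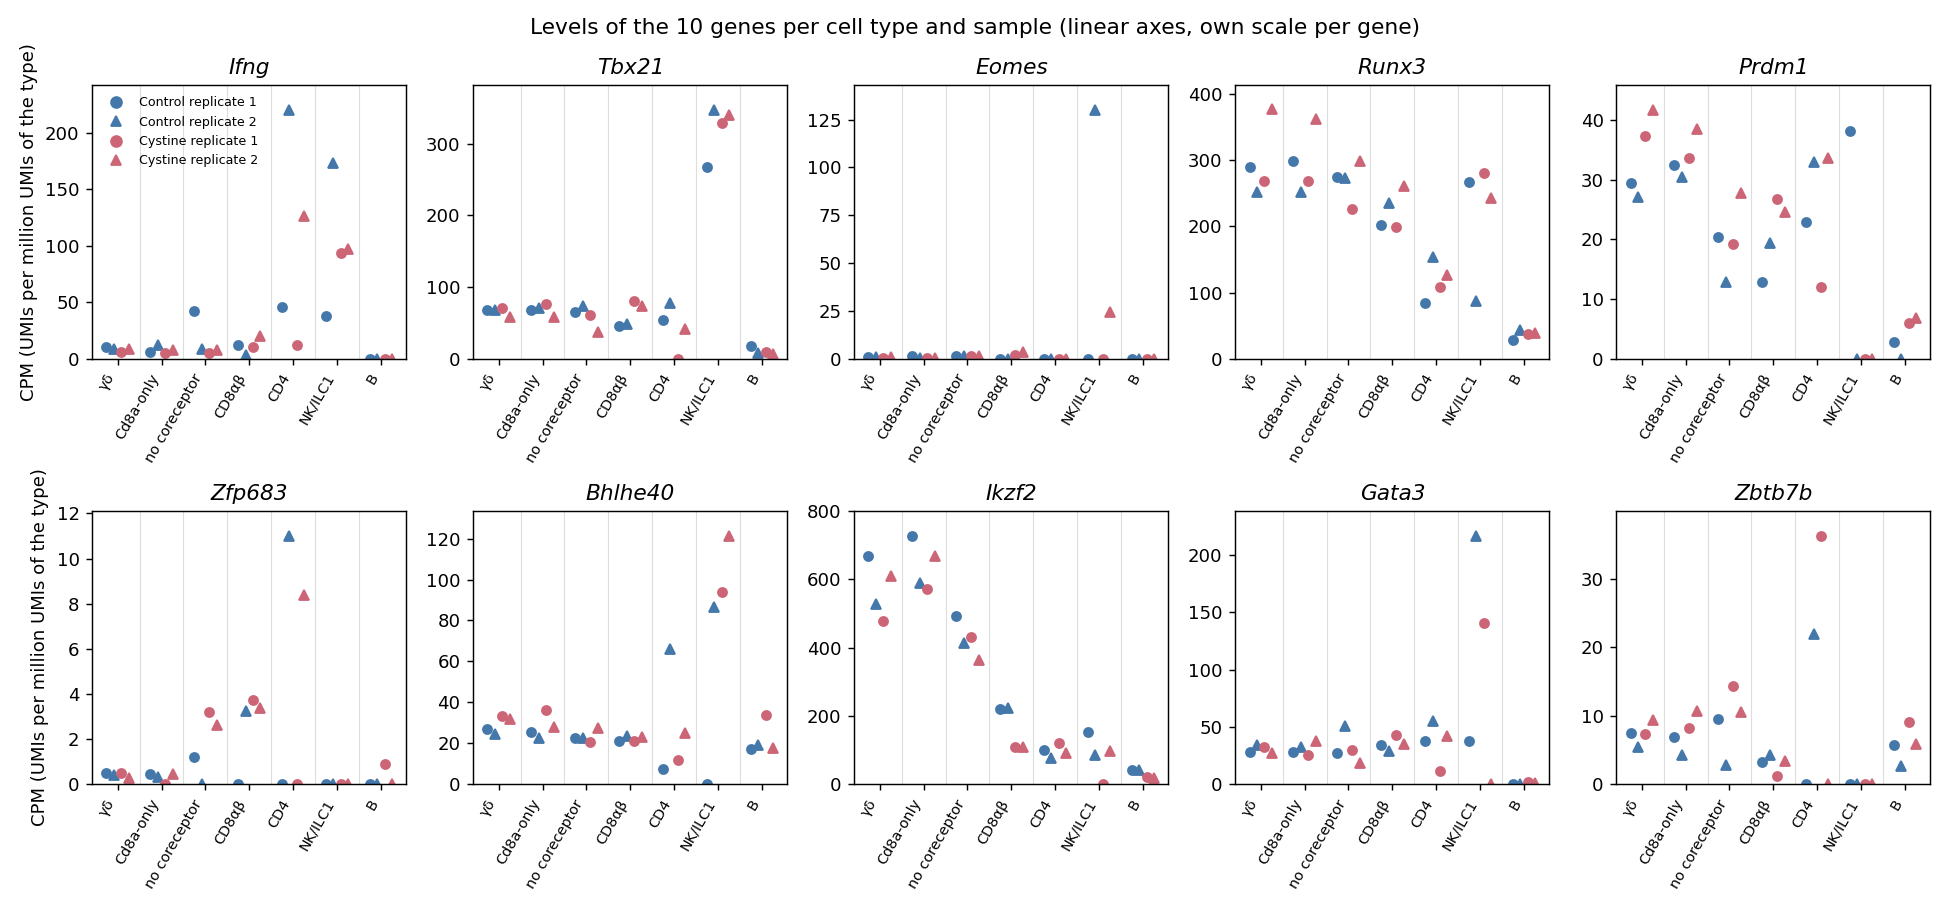
CPM of each of the 10 genes in each cell type and sample, on linear axes with a scale of its own for every gene; circles and triangles are replicates 1 and 2, blue control and red cystine. Tbx21 stands apart in NK or ILC1 cells (267 to 346 CPM), and Ikzf2 is lower in CD8αβ cells (108 to 223 CPM) than in γδ, Cd8a-only and coreceptor-undetected cells (365 to 726 CPM).

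In counts, 4 of 8 members tested were higher in γδ than in CD8αβ cells and 0 lower (37.6% of all genes passed, 18.7% as higher). In Cd8a-only cells 4 of 8 were higher (34.6% passed, 17% as higher), in coreceptor-undetected cells 2 of 8 (11%, 6.15% as higher), and in CD4 cells 1 was higher and 1 lower (5.7%, 2.26% higher and 3.44% lower). With DESeq2 size factors in place of TMM, the share of called genes that were higher moved in every contrast. It went from 49.9% to 59.6% in γδ and from 49.3% to 60.1% in Cd8a-only cells. In coreceptor-undetected cells it went from 55.8% to 67.0%, and in CD4 cells from 39.6% to 55.9%. No member called here changed direction with that scaling.

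Of 16 genes of type 1 induction and signalling, 4 were higher and 3 lower in γδ than in CD8αβ cells, in a contrast where 37.6% of all genes passed. Il12rb2, a chain of the interleukin-12 receptor (0.98, SE 0.13, edgeR adjusted p = 7.2e-07), and Stat4, its signal transducer (0.58, SE 0.08, adjusted p = 6.6e-07), were among the higher. Il18rap, a chain of the interleukin-18 receptor, was lower (-2.34, SE 0.40, edgeR adjusted p = 3.7e-05). In CD4 cells Il18r1 (5.33, SE 0.59, edgeR adjusted p = 7.6e-07) and Il18rap (2.37, SE 0.53, adjusted p = 0.00554) were higher than in CD8αβ cells; Il18r1 stood at 75.6 to 109 CPM in CD4 cells and at 0 to 4.3 CPM in CD8αβ cells. Between the diets 0 of 13 of these genes tested passed in CD8αβ cells, against 0.766% of all genes, and 0 of 16 in all T cells, against 0.185%, with medians of 0.04 and -0.03 against 0.00 and 0.00 over all genes.

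Type 1 effector genes were mostly lower in CD4 cells: of 13 tested, 10 were lower and 1 higher than in CD8αβ cells. Of all genes 5.7% passed there, 3.44% as lower and 2.26% as higher. The median was -1.53 over the 13 and -0.16 over all genes. The 1 effector gene that was higher was the cytokine gene Tnf (1.80, SE 0.34, edgeR adjusted p = 0.00119). Ccl5 (-2.48, SE 0.23, edgeR adjusted p = 4.9e-08) and Gzma (-1.72, SE 0.21, adjusted p = 2.0e-06) were among the lower. Between the diets in CD8αβ cells, 1 of 13 rose and 0 fell, against 0.766% of all genes. It was Gzmk, whose diet difference was known from earlier results of these data. Gzmk stood at 171 and 278 CPM in the controls and at 1013 and 872 CPM in the cystine samples (1.99, SE 0.18, edgeR adjusted p = 0.000800). Cxcr3, a chemokine receptor under T-bet control, stood at 115 and 111 against 182 and 151 CPM; its change did not pass (0.48, SE 0.14, edgeR adjusted p = 0.212), while its interaction with γδ cells did (0.76, SE 0.15, adjusted p = 0.00321). Of 15 effector genes in that interaction 3 were higher (Gzmk, Cxcr3 and Ccl5) and 1 lower (Gzmb, -0.64, SE 0.14, edgeR adjusted p = 0.00826). Among the 16 induction genes 1 was higher and 1 lower. The lower was Il2rb, a chain of the interleukin-2 and interleukin-15 receptors (-0.55, SE 0.14, edgeR adjusted p = 0.0355). Of all genes 1.22% passed in this interaction, 0.507% as higher and 0.71% as lower.

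The lists that follow were read in the diet test of CD8αβ cells, where 0.766% of all genes passed, 0.539% as lower. Of 10 genes tied to residence or exit from tissue, 1 rose and 1 fell with cystine in CD8αβ cells. Cxcr6, a chemokine receptor of resident T cells, stood at 189.9 and 208 CPM in the controls and at 570 and 384 CPM in the cystine samples (1.18, SE 0.17, edgeR adjusted p = 0.0143). Tcf7, the factor of naive and memory T cells, stood at 136 and 137 against 68.5 and 78.9 CPM (-0.95, SE 0.15, edgeR adjusted p = 0.0187). Among 15 partners and other lineage factors 0 passed, Cbfb, the binding partner of the Runx proteins, at 0.44 (SE 0.25, edgeR adjusted p = 0.567), and among 2 type 2 genes 0 passed. Of 5 regulatory T cell genes, with a median of -1.03 against 0.00 over all genes, 1 fell: Capg, an actin-capping protein, from 52.3 and 45.2 to 16.8 and 24.5 CPM (-1.28, SE 0.24, edgeR adjusted p = 0.0481). Foxp3, the defining regulatory T cell factor, had 0 to 1.1 CPM in CD8αβ cells and was not tested there; in CD4 cells it stood at 53.5, 0, 12.1 and 8.4 CPM. Of 6 epithelial markers tested Lyz1 and Defa24 rose and Zg16 fell in the same cells, and the summed level of the 9 markers was 157 and 336 CPM in the controls and 418 and 631 CPM in the cystine samples. The summed level of 6 B cell markers was 418, 560, 792 and 307 CPM, with Cd79a at 0 by the gate. The part of either list in the differences of the members was not tested.

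Genes most like single members were read from 20 sums (5 T cell types in 4 samples), which share libraries and depth, by Pearson's r of log2 CPM over 5790 genes. They describe the order of types and say nothing of function. Ikzf2 was closest to Mei1, Mfsd10 and Rhoc (r = 0.96 each) and Runx3 to Lat2, Itgad and Tsga10 (0.94 each). Tbx21 was closest to Cops4 (0.99), Atf6b and Eif4e3 (0.98 each), where a sum of 0 UMIs in CD4 cells of cystine replicate 1 weighs heavily. Bhlhe40 was closest to Usp7 (0.92), Ifng to 9130401M01Rik (0.91), Gata3 to Syf2 (0.88), Prdm1 to Polr2a (0.83), and Zfp683 and Eomes, both of few UMIs, to Pwwp3a (0.79) and Stk10 (0.75).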

How the data were processed

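The values deposited by the authors are raw UMI counts for each gene and barcode; per the submitters' processing notes Cell Ranger 3.1.0, Seurat 4.0.1 and build GRCm39 were used, while the matrix headers name cellranger 7.0.1. Barcodes needed 300 genes or more and a mitochondrial share of UMIs no higher than 10%, and the highest Scrublet scores (scanpy 1.11.5) were removed at 0.8% per 1000 barcodes, which left 58725 of 68260. T cells needed at least 1 Cd3d, Cd3e or Cd3g UMI and 0 of Cd79a, Siglech, Csf1r and a further marker; T cells that fitted no type, 3514 to 4465 per sample, count only in the sum of all T cells. Kept UMIs were 22367265 to 25742401 per sample.

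Counts were summed per sample and type, where every sample had at least 30 cells, and tested over all genes with edgeR 4.0.16 in R 4.3.3 (filterByExpr, TMM, quasi-likelihood; Benjamini-Hochberg within a comparison; threshold 0.05). The sample was a block in contrasts between types, in interactions and between cells with and without Ifng or Gzmk. CPM are plain shares of UMIs; fold changes use TMM. The fits were tested on simulated counts. For a sum of 0 UMIs, 3 UMIs set the upper limit.

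The members and gene lists were chosen with earlier results of these data known. Named genes are the 10 members, the genes most like each by r among those of at least 20 CPM, up to 4 genes per list that passed the diet test in CD8αβ or all T cells, and Stat4, Il12rb2, Il18r1, Il18rap, Cxcr3, Cbfb, Foxp3 and Gzmk; some of these genes are not reported here, and other genes named beside a list count or a split were chosen after their values were seen. Alternatives were DESeq2 1.42.0 (size factors, Wald test), no low count filter, no doublet removal, stricter cells (800 genes or more, 5% mitochondrial UMIs or less), stricter gates, thinning to 1000 or 1500 UMIs, a replicate block and leaving out each sample; those added after seeing the data were the Gzmk and γδ-marker subsets and a crossed block. No coordinates or sequences are printed, since the annotation at hand is of another build.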

Additional observations from a re-analysis of the deposited data

Results flagged for a closer look

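The diet effect on Ikzf2 in CD8αβ T cells differed from that in γδ cells by -0.88 and from that in Cd8a-only cells by -0.93 on the log2 scale, each by an edgeR interaction test; both passed in all 9 alternatives fitted, where they ran from -1.15 to -0.50 and from -1.22 to -0.57. The diet effect on Tbx21 differed between CD8αβ and γδ cells by 0.81, and it passed in 5 of 9 alternatives (0.70 to 0.96). The diet effect on Ikzf2 differed by -1.56 between CD8αβ cells with and without a Gzmk UMI, a comparison added after the data had been seen; in its alternatives the value ran from -1.89 to -0.60.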

How the results depend on the processing

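Over all alternatives and members, 1096 results kept their direction and side of the threshold or missed it in both, 21 lost a call and 20 gained one, and none reversed a call. The Ikzf2 difference in CD8αβ cells passed in all 11 alternatives over the whole gate (-1.37 to -0.74, edgeR or DESeq2 adjusted p at most 0.0260), the smallest without doublet removal; the cause of this shift was not tested. Counts of genes called for the diet moved as follows. With the DESeq2 Wald test they were 56 in all T cells, 15 in Cd8a-only and 33 in CD8αβ cells. Without the low count filter they were 255 in γδ, 296 in CD8αβ, 171 in Cd8a-only, 14 in CD4, 44 in coreceptor-undetected and 357 in all T cells; there the interactions gave 207 (γδ), 174 (Cd8a-only) and 13 (CD4), and the Gzmk comparisons 119 and, with diet, 122. Without doublet removal there were 36 in CD8αβ and 13 in Cd8a-only cells and 1 in the CD4 interaction. With stricter cells there were 8 in all T cells, 45 in the Cd8a-only interaction and 238 between coreceptor-undetected and CD8αβ cells. With stricter gates there were 17 in Cd8a-only cells, 85 and 52 in the γδ and Cd8a-only interactions, 492 between coreceptor-undetected and CD8αβ cells and 15 for Gzmk with diet, which gave 14 in thinned cells. CD8αβ cells without Gzmk gave 8 and those without γδ-marker UMIs 26. The cause was not tested.

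The labels do not say whether the replicate numbers pair the samples. The correlations of deviations ran from -0.21 to 0.10, and 2 pairs are too few to decide it. With a replicate block 175 genes were called in γδ, 210 in CD8αβ, 88 in Cd8a-only and 276 in all T cells, 5 in coreceptor-undetected and 0 in CD4 cells. With crossed numbers coreceptor-undetected cells gave 12.

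Leaving out each sample in turn gave 38 to 336 genes in γδ, 17 to 219 in CD8αβ, 34 to 399 in Cd8a-only, 0 to 60 in CD4, 10 to 108 in coreceptor-undetected and 1 to 301 in all T cells. The interactions ran from 108 to 188 (γδ), 95 to 241 (Cd8a-only) and 8 to 65 (CD4), the Ifng comparison from 26 to 105, Gzmk from 19 to 87 and Gzmk with diet from 40 to 110, and against CD8αβ cells coreceptor-undetected cells from 424 to 1023 and CD4 cells from 332 to 439. The difference in the share of cells with an Ifng UMI, cystine minus control in percentage points, ran from -0.281 to -0.133 in γδ, -0.128 to 0.730 in CD8αβ, -0.592 to 0.145 in Cd8a-only, -7.63 to 6.66 in CD4, -0.936 to 0.0879 in coreceptor-undetected and -0.329 to -0.0236 in all T cells. In γδ cells it was -0.366 without doublet removal, -0.339 with stricter gates and -0.436 unthinned. It was -1.57 in coreceptor-undetected cells with stricter gates, 1.30 in CD8αβ cells thinned to 1500 UMIs and -0.506 in all T cells unthinned. The Ifng comparison was not run in thinned γδ cells or in those free of epithelial markers, where cystine replicate 1 had 16 Ifng-positive cells. Depth limits Eomes, Zfp683 and Zbtb7b and all members in CD4 and NK or ILC1 cells.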
